A study of Homo sapiens with 8 samples.

Results

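The human genome carries many of its zinc finger genes on chromosome 19, and their promoters were read here for FLI1 binding in VAL and OCI-Ly1, both of them cell lines of germinal centre B-cell-like diffuse large B-cell lymphoma (GCB DLBCL). The members were the protein-coding genes of chromosome 19 in GENCODE on GRCh37 whose symbol is ZNF followed by a digit, 249 of the 1480 protein-coding genes of that chromosome and of 20162 in all. A member counted as bound in a library when a peak centred within 3 kb of any of its annotated transcription start sites (TSS) had a -log10 q of at least 3, where q is the adjusted p-value that the authors' caller gave the peak. Annotated read-through genes with such a symbol stayed in and made 3 of the 249 (ZNF559-ZNF177, ZNF625-ZNF20 and ZNF816-ZNF321P). The ChIP-Seq samples were 2 replicates per line, taken with a rabbit polyclonal antibody against FLI1 from untreated cells as far as the labels say, beside 4 samples of input DNA that were not analysed here. Each line is a single established culture that stands for one tumour, and nothing in the labels says whether replicates came from separate cultures. Peak lists hold no expression values, so neither the B-cell identity of the lines nor the expression of the members could be checked in them.

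Most of these genes encode C2H2 zinc finger proteins, and many pair their fingers with a KRAB domain, which brings in TRIM28 (KAP1) and the histone methyltransferase SETDB1 to silence chromatin. They lie in tandem clusters that arose by duplication, and many of their products bind and repress transposable elements. FLI1 is an ETS transcription factor of blood and endothelial cells whose DNA motif is built around GGAA, and ETS sites are common close to the TSS of housekeeping promoters.

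Only 3 of the 4 FLI1 libraries could be used, replicate 2 of OCI-Ly1 (OCI-Ly1 r2) and replicates 1 and 2 of VAL (VAL r1 and VAL r2). The list of OCI-Ly1 replicate 1 held 37 intervals, 33 of them longer than 1 Mb, and none of its intervals was centred within 3 kb of a member TSS, so it entered no count and OCI-Ly1 had 1 library and no replicate error. VAL r1 stood apart from VAL r2, with 973 passing peaks against 6474, and 45 against 418 on chromosome 19. OCI-Ly1 r2 had 5354 passing peaks, 402 of them on chromosome 19. Totals of sequenced reads were not given in the sources used here, so depth was known only through the read count inferred at each summit from the fold enrichment and the p-value. With 1 library in one line and 2 unequal libraries in the other, no test between the lines was made, and shares are given with 95% Wilson intervals that cover counting error only.

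FLI1 peaks were found at the promoters of 67 of the 249 members (26.9%) in at least 1 library, beside 30.5% of the other coding genes of chromosome 19 and 27.4% of all coding genes. In OCI-Ly1 r2, 55 members were bound (22.1%, interval 17.38 to 27.64), and the background there was 22.7% of the other coding genes of chromosome 19. In VAL r2, 41 members were bound (16.5%, interval 12.38 to 21.58), against a background of 21.9%. VAL r1 held 2 bound members (0.803%), against a background of 3.25%, with 4.14% for ZNF genes elsewhere and 3.14% for all coding genes. The share of members minus the share of other chromosome 19 genes was -0.657 percentage points in OCI-Ly1 r2, with a Newcombe interval from -5.95 to 5.34. In VAL r2 the difference was -5.39 points (-10.1 to 0.184), and in VAL r1 it was -2.45 points (-3.73 to -0.2). The bound share of the members was therefore near that of their chromosome in OCI-Ly1, and lower by at most 10.1 points in VAL r2, where the interval still reached above 0. ZNF genes of other chromosomes, 266 in number, were bound in 30.8% in OCI-Ly1 r2 and 29.7% in VAL r2, and their interval in VAL r2 (24.53 to 35.45) did not overlap that of the members, while in OCI-Ly1 r2 the intervals overlapped (25.58 to 36.62 for ZNF genes elsewhere).

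**Figure D1:**
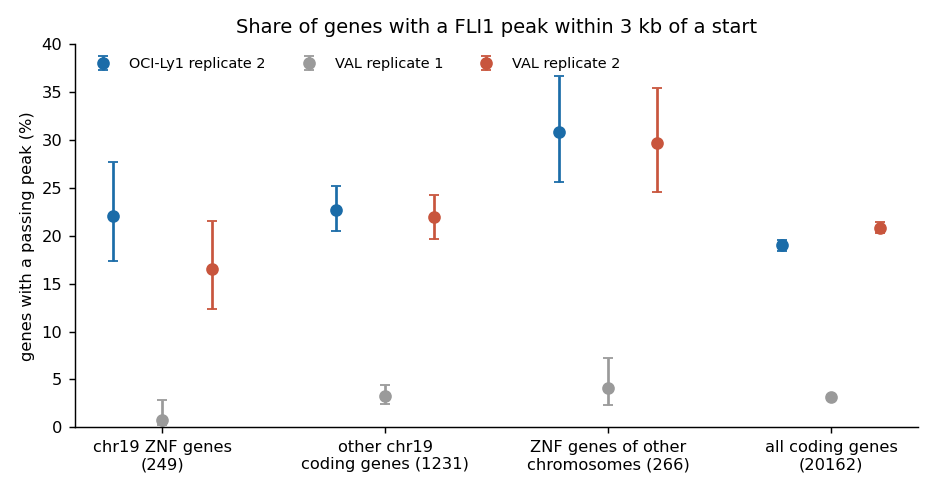
Points give the percentage of genes (y axis) with a passing peak centred no more than 3 kb from a TSS, by gene set (x axis, number of genes in brackets) and library (colour), and bars are 95% Wilson intervals. The chromosome 19 ZNF genes sit at 22.1% and 16.5% in OCI-Ly1 r2 and VAL r2, below the ZNF genes of other chromosomes at 30.8% and 29.7%, while VAL r1 lies under 5% throughout.

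Of the 67 bound members, 26 passed in OCI-Ly1 r2 alone, 12 in VAL r2 alone, 27 in both of these, and 2 in all 3 libraries. The members bound in both lines numbered 29 (11.6%), beside a background of 14.2%, and those bound in all 3 libraries made 0.803%, beside a background of 3.01%. The 29 shared members were 52.7% of those bound in OCI-Ly1 r2 and 70.7% of those bound in VAL r2. For the other coding genes of chromosome 19 the same shares were 62.1% and 64.7%. The remaining 182 members had no passing peak in any library. Every member had some listed peak near a TSS in OCI-Ly1 r2 and VAL r2, with a median best -log10 q of 1.22 and 1.45. Nearly all other coding genes of the chromosome had one too, with higher medians of 1.61 and 1.71. Only 0.244% and 0.0812% of those genes had none listed, so a listed peak alone does not mark binding. In VAL r1, 24.5% of the members had none listed, close to 23.3% for the other genes of the chromosome.

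The members bound in all 3 libraries were ZNF837 and ZNF175. ZNF837 (ENSG00000152475, minus strand, chr19:58878985-58892397) had a -log10 q of 17.3 in OCI-Ly1 r2, 8.71 in VAL r1 and 16 in VAL r2, with fold enrichments of 10.8, 6.58 and 11.8. Its summits rested on 23, 21 and 16 inferred reads and fell 237, 268 and 219 bp downstream of its nearest TSS. It was the strongest member of VAL r1 and high in the other libraries too. ZNF175 (ENSG00000105497, plus strand, chr19:52074536-52095763), also known as OTK18 and reported to suppress HIV-1 transcription in macrophages, had values of 3.38, 4.32 and 5.16 in the same order. Its summits rested on 7, 11 and 7 reads, and it passed in every library, closest to the threshold in OCI-Ly1 r2.

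The sites below show the ETS motif at the summits of 10 bound members, among them the pair bound in all 3 libraries and examples of each ending of the motif. Other strong peaks had no such motif within 50 bp of the summit, among them those of ZNF473 and ZNF296 in both lines. Each line is the 25 bases around the motif on GRCh37, written 5′ to 3′ on the strand that carries it, and capitals mark CCGGAAA or CCGGAAG, the motif searched on both strands. The site nearest to the summit of the OCI-Ly1 peak is shown, or of the VAL r2 peak where the OCI-Ly1 peak had no motif within 50 bp (ZNF175).
ZNF837: gcgcgaggaCCGGAAGtgcgcggcg
ZNF175: taacccaaaCCGGAAGtggcctaga
ZNF875: ggccaccgaCCGGAAGtgtttctga
ZNF274: ggggtcaggCCGGAAGtgctggaat
ZNF557: agccggagaCCGGAAGcggaagcgc
ZNF333: gccccgagaCCGGAAGcggaagtgc
ZNF580: tctccgaatCCGGAAGctgctggag
ZNF121: gagccagcgCCGGAAAagatggcga
ZNF561: gagccagcgCCGGAAAagatggcgg
ZNF160: tgggcggaaCCGGAAAagggcgggg
The sites lie at chr19:58892158-58892182 (plus strand) for ZNF837, chr19:52074509-52074533 (plus) for ZNF175, chr19:37825543-37825567 (minus) for ZNF875, chr19:58694428-58694452 (minus) for ZNF274 and chr19:7069683-7069707 (plus) for ZNF557. Those of ZNF333, ZNF580 and ZNF121 lie on the plus strand at chr19:14800847-14800871, chr19:56146319-56146343 and chr19:9695190-9695214. Those of ZNF561 and ZNF160 lie on the plus strand at chr19:9731891-9731915 and chr19:53606729-53606753. The motif centre was 18 bp from the summit at ZNF837, 4 bp at ZNF875, 3 bp at ZNF274 and ZNF333, 2 bp at ZNF580 and 1 bp at ZNF561, and farthest at ZNF175 (45 bp) and ZNF121 (44 bp).

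The strongest members by the median -log10 q over the 3 libraries were, after ZNF837, ZNF121, ZNF875, ZNF580, ZNF581, ZNF333, ZNF473, ZNF557, ZNF865 and ZNF787. ZNF121, reported as a partner of MYC, reached 12.7 in OCI-Ly1 r2 and 17.8 in VAL r2, on 16 reads in each, but its listed peak in VAL r1 had a value of 0. ZNF473 (ZFP100), a part of the machinery that processes histone pre-mRNA, had values of 18, 0.495 and 9.67 in OCI-Ly1 r2, VAL r1 and VAL r2. The same order gave 13.5, 2.33 and 9.80 for ZNF333 and 13.5, 0.0124 and 9.48 for ZNF557. These 4 genes were high in OCI-Ly1 r2 and VAL r2 alike and below the threshold in VAL r1. ZNF580 and ZNF581 are neighbours whose starts lie close enough to share 1 peak, with 11.8, 2.34 and 11.8, and its summit fell at -49 bp from a TSS of ZNF580 and at -492 bp from one of ZNF581, negative being upstream, in OCI-Ly1 r2. ZNF865 had 9.75, 2.92 and 8.96, and in VAL r1 it stood just under the threshold. ZNF787 had 11.3, 1.72 and 8.94.

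Several of these peaks also lay within 3 kb of a TSS of a gene that is no member, so the peak cannot be given to the zinc finger gene alone. The peak of ZNF473 is shared with VRK3, that of ZNF333 with ADGRE3 and that of ZNF557 with MBD3L3. ZNF296 was bound in both lines (12.1 in OCI-Ly1 r2 and 8.76 in VAL r2), yet its summits fell at -2762 and -2683 bp from its TSS. Its peaks were also centred within 3 kb of an annotated TSS of GEMIN7 and of MARK4. Of the 55 members bound in OCI-Ly1 r2, 16 had a peak within reach of another coding TSS, as did 11 of the 41 in VAL r2, and the bound members rested on 53 and 40 distinct peaks.

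ZNF875 (also HKR1; ENSG00000181666, plus strand, chr19:37803739-37860267) had the highest value of any member, 28.0 in OCI-Ly1 r2, with a fold enrichment of 17.1 on 21 reads. Its best peak in VAL r2 had 12.6, with a fold of 10.2 on 12 reads, and in VAL r1 its value was 2.36. The best peaks of the lines lay at different starts of the gene, 16758 bp apart. At the downstream start (summit at base 37825551) the values were 28.0 in OCI-Ly1 r2 and 4.34 in VAL r2, and no peak was listed within 250 bp in VAL r1. At the upstream start (summit at base 37808793) they were 8.14 in OCI-Ly1 r2, 2.36 in VAL r1 and 12.6 in VAL r2. Both starts were thus bound in both lines, and the order of the starts was opposite in OCI-Ly1 r2 and VAL r2. Whether that order would hold in a second OCI-Ly1 library was not tested.

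Among the 29 members bound in both lines, the best summits of OCI-Ly1 r2 and VAL r2 lay within 100 bp of each other for 19 and within 250 bp for 22, with a median distance of 44 bp. The 7 members over 250 bp apart were ZNF558, ZNF700, ZNF875, ZNF227, ZNF787, ZNF530 and ZNF584. Their distances were 461, 469, 16758, 5016, 733, 320 and 6849 bp in this order. For ZNF227 and ZNF584, whether each site was bound in both lines was not examined. The value was higher in OCI-Ly1 r2 for 19 of the 29 and in VAL r2 for 8, and it was equal to the printed digits for ZNF580 and ZNF581, which share their peak. ZNF558, reported to repress the mitochondrial gene SPATA18, was among those higher in VAL r2, with 3.99 in OCI-Ly1 r2, no listed peak in VAL r1 and 19 in VAL r2. ZNF160, reported to repress TLR4, lay on the other side, with 18.1, 1.15 and 6.02 in the order OCI-Ly1 r2, VAL r1, VAL r2. Across all 249 members, Spearman's rho between the best values of OCI-Ly1 r2 and VAL r2 was 0.52, and between the VAL replicates it was 0.24. These are descriptions across genes of 2 libraries, and the genes share depth, mappability and, in places, peaks.

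**Figure D2:**
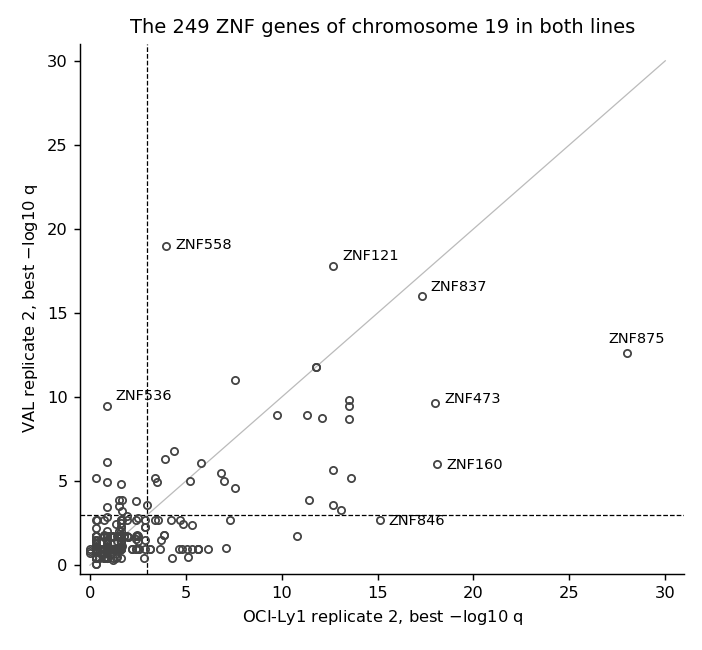
Each circle is 1 of the 249 members, with its best -log10 q in OCI-Ly1 r2 (x axis) and VAL r2 (y axis), dashed lines at the threshold of 3 and a grey line of equality. ZNF875 (28.0 against 12.6) and ZNF160 (18.1 against 6.02) lie below the line of equality, ZNF558 (3.99 against 19) above it, and most members crowd under 3 in both.

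A passing value in 1 line and a value under 1.5 in each library of the other was found for 13 members in OCI-Ly1 and 6 in VAL. Other coding genes were not counted by this rule, so these counts have no background and cannot be called high or low. The rule was also unequal, since VAL r1 and VAL r2 both had to be low for OCI-Ly1 members, but only OCI-Ly1 r2 for VAL members. The strongest for OCI-Ly1 were ZNF606, ZNF585A and ZNF546. ZNF606 had 7.09 in OCI-Ly1 r2, against 0.183 and 0.999 in VAL r1 and VAL r2. ZNF585A had 6.15 against 0 and 0.952, and ZNF546 had 5.64 against 0, with no listed peak in VAL r1, and 0.952. The strongest for VAL were ZNF536, ZNF230 and ZNF347. ZNF536, a repressor of neuronal differentiation, had 9.48 in VAL r2 on 10 reads, 0.782 in VAL r1 and 0.873 in OCI-Ly1 r2. ZNF230 had 6.15 in VAL r2, 2.47 in VAL r1 and 0.873 in OCI-Ly1 r2, and ZNF347 had 5.18, 1.01 and 0.344. None of the 6 VAL members passed in VAL r1 as well, so each rests on 1 library.

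Differences of this kind stood on few reads. Passing member peaks rested on a median of 9 reads in OCI-Ly1 r2 (range 6 to 23) and 8 in VAL r2 (range 6 to 18). The 26 members bound in OCI-Ly1 r2 and not in VAL r2 had a median of 4 reads (range 2 to 6) at their best VAL r2 peak, and 8 of them had a value between 2 and 3 there. The 12 members with the reverse pattern had a median of 4 reads (range 2 to 8) in OCI-Ly1 r2, and 2 of them lay between 2 and 3. A value below 1 in the other library was found for 14 of the 26 and 5 of the 12. Just inside the threshold stood ZNF814 and ZNF264 in OCI-Ly1 r2 (3.11 each), ZNF175 in VAL r1 (4.32) and ZNF329 in VAL r2 (3.2). Just outside stood ZNF562 (2.97), ZNF865 (2.92) and ZNF441 (2.91) in the same libraries. Between 2 and 3 lay 23 members in OCI-Ly1 r2, 6 in VAL r1 and 30 in VAL r2.

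The peaks sat at the starts of the genes. The summit was within 250 bp of a TSS of the member for 49 of 55 in OCI-Ly1 r2 and 37 of 41 in VAL r2, at median distances of 44 and 40 bp. By annotation, 20 of the 55 summits in OCI-Ly1 r2 lay upstream of the gene, 24 in a UTR exon of one of its transcripts and 11 in an intron. In VAL r2, 17 of the 41 lay upstream, 14 in a UTR exon, 7 in an intron, 2 in an exon of a non-coding transcript and 1 in a coding exon. The motif CCGGAAA or CCGGAAG stood within 50 bp of the summit in 28 of 53 member peaks in OCI-Ly1 r2 (52.8%, interval 39.66 to 65.62), and in 3.77% of windows of the same width 250 bp to either side. In VAL r2 it stood in 24 of 40 (60.0%, interval 44.6 to 73.65), and in 2.5% of the windows beside them. Peaks of the other coding genes of chromosome 19 held it in 54.3% and 42.9%. The motif thus stood near the summit in 52.8% and 60.0% of member peaks, with intervals starting at 39.66 and 44.6, and was rare 250 bp away. Of 183 motif sites within 250 bp of the canonical TSS of members, bound or not, 120 lay within 50 bp of it. For most peaks the windows beside the summit lie farther from the TSS, so the contrast does not separate the summit from the TSS.

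The members formed 10 clusters of at least 5 genes when neighbours less than 500 kb apart were joined, which took in 235 of them, and the clusters were numbered from the short-arm end. The share of members bound in at least 1 library ran from 0 of 5 in cluster 1 (ZNF554 to ZNF77) to 9 of 14 in cluster 2 (64.3%, ZNF414 to ZNF846, chr19:8574562-9903856). Cluster 9 (ZNF628 to ZNF835, chr19:55987984-57183151) had 8 of 16 bound (50%) and cluster 10 (ZNF264 to ZNF446, chr19:57702868-58992597) had 18 of 43 (41.9%), of which 16 were bound in OCI-Ly1 r2 and 9 in VAL r2. At the low end, cluster 4 (ZNF101 to ZNF254, chr19:19779605-24312770) had 3 of 37 bound (8.11%, interval 2.796 to 21.3) and cluster 8 (ZNF175 to ZNF331, chr19:52074536-54083523) had 4 of 40 (10%, interval 3.958 to 23.05). The intervals of clusters 4 and 8 did not overlap those of clusters 2 (38.76 to 83.66), 9 (28.0 to 72.0) and 10 (28.38 to 56.67). Clusters 3, 6 and 7 lay between, with 5 of 26 (19.2%), 6 of 26 (23.1%) and 4 of 23 (17.4%), and cluster 5 had 1 of 5. The contrast with cluster 10 rested on OCI-Ly1 r2, since in the VAL libraries alone cluster 10 stood at 20.9% (interval 11.4 to 35.2) and clusters 4 and 8 at 5.41% (1.5 to 17.7) and 7.5% (2.58 to 19.9), with overlapping intervals. In the VAL libraries clusters 2 and 9 stood at 42.9% (21.4 to 67.4) and 43.8% (23.1 to 66.8), still without overlap, while cluster 6 had 6 members bound in OCI-Ly1 r2 and 1 in VAL r2. Neighbouring genes share peaks and ancestry, so the members of a cluster are not independent draws.

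Outside the clusters 9 of 14 members were bound (64.3%, interval 38.76 to 83.66), and inside them 58 of 235 (24.7%). Of the coding genes that are no members, which include other C2H2 zinc finger genes, 18 of 110 were bound inside the spans of the clusters (16.4%) and 358 of 1121 outside them (31.9%). Within the spans of clusters 4 and 8, none of the 3 and 14 other coding genes was bound. In cluster 2, by contrast, 2 of 14 other coding genes (14.3%) were bound beside 9 of 14 members, and in cluster 10 it was 5 of 22 (22.7%) beside 18 of 43.

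**Figure D3:**
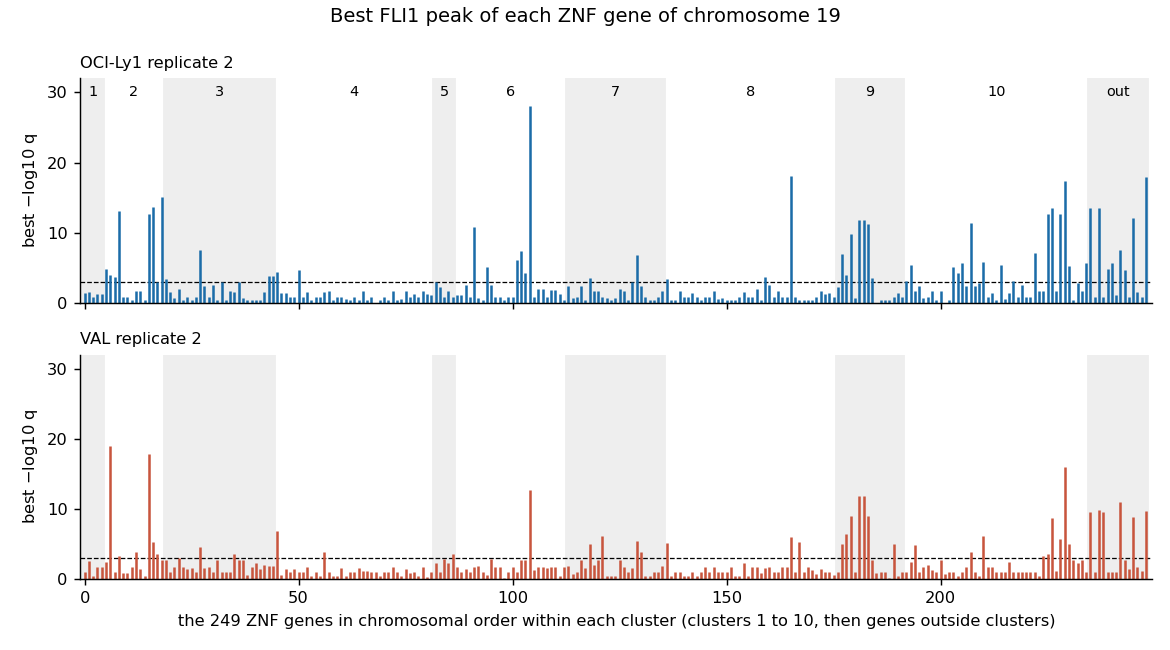
Each vertical line is 1 member, in chromosomal order within clusters 1 to 10 (shaded in turn) and then outside them, and its height is the best -log10 q in OCI-Ly1 r2 (top) and VAL r2 (bottom), with a dashed line at 3. Tall lines stand in clusters 2, 9 and 10, at ZNF875 in cluster 6 and outside the clusters, while clusters 4 and 8 stay low but for single genes such as ZNF160 (18.1 in OCI-Ly1 r2).

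The few bound members of clusters 4 and 8 had values of at most 6.82 in any library, with 1 exception. That 6.82, of ZNF101 in VAL r2, lay above the median of 5.57 for passing member peaks of that library. In cluster 4, ZNF101 at its edge had 4.39, 1.01 and 6.82 in OCI-Ly1 r2, VAL r1 and VAL r2. ZNF682 had 4.67 in OCI-Ly1 r2 and 0.952 in VAL r2, and ZNF85 had 1.5 and 3.87 in these libraries. In cluster 8 the bound members were ZNF175 at its edge, ZNF160, ZNF347 and ZNF28, and ZNF160 was the exception, with 18.1 in OCI-Ly1 r2. By the median over the 3 libraries, the best member of each remaining cluster was ZNF555 in cluster 1 (1.6, 0.757 and 2.51, not bound), ZNF121 in cluster 2, ZNF700 in cluster 3 (7.54, 0 and 4.59), ZNF302 in cluster 5 (2.89, 0.183 and 2.27, not bound, while ZNF792 there was bound with 3.47 in VAL r2), ZNF875 in cluster 6, ZNF227 in cluster 7 (6.84, 0 and 5.46), ZNF580 with ZNF581 in cluster 9 and ZNF837 in cluster 10.

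The ETS motif was common in the promoters of the members whether bound or not. Within 250 bp of the canonical TSS, 145 of the 249 members (58.2%) held CCGGAAA or CCGGAAG on either strand, against 22.3% of the other coding genes of chromosome 19, 40.2% of ZNF genes elsewhere and 21.8% of all coding genes. Members that held it were bound in 33.1% (48 of 145), and those without it in 18.3% (19 of 104). For the other coding genes of chromosome 19 these shares were 57.8% and 22.7%. The members thus carried the motif more often than their neighbours on the chromosome, and those that carried it were bound less often. Clusters 4 and 8 stood at the far end of this contrast, since 86.5% and 80.0% of their members held the motif and 8.11% and 10% were bound. Of the 64 motif promoters in these 2 clusters 7 were bound (10.9%), and of the 81 elsewhere 41 were bound (50.6%). The 2 clusters were pooled after their low bound shares were seen, so a low share in the pool was built into this contrast.

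**Figure D4:**
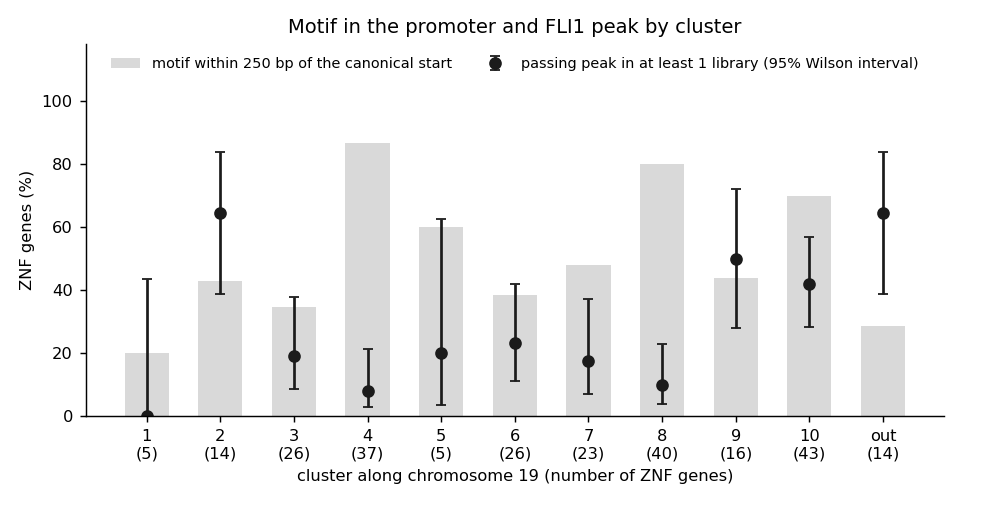
Grey bars give the percentage of the members of each cluster (x axis, number of members in brackets, "out" for those outside clusters) with the motif within 250 bp of the canonical TSS, and points give the percentage with a passing peak in at least 1 library, with 95% Wilson intervals. Clusters 4 and 8 have the tallest bars (86.5% and 80.0%) and points at 8.11% and 10%. In clusters 2 and 9 and outside the clusters the points stand above the bars.

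The motif took different forms in different clusters, and the promoter sites below are examples from clusters 4, 8 and 10, picked after the sites were seen. Capitals again mark CCGGAAA or CCGGAAG, and the 25 bases are read 5′ to 3′ on the strand that carries the motif.
ZNF91 (cluster 4): agccacatcCCGGAAGccgccctgt
ZNF208 (cluster 4): gaccacatcCCGGAAGccgacctgt
ZNF85 (cluster 4): cgccacatcCCGGAAGccgccctat
ZNF43 (cluster 4): cgccaaaagCCGGAAGccacggccc
ZNF808 (cluster 8): aacgcaaacCCGGAAGcggatcggg
ZNF665 (cluster 8): cttgcaaacCCGGAAGcagatctct
ZNF347 (cluster 8): tctgcagttCCGGAAGcggatcgtg
ZNF606 (cluster 10): tgcccgacgCCGGAAGtgcccgcct
ZNF274 (cluster 10): cgggtagggCCGGAAGtgcaggggg
They lie at chr19:23578282-23578306 (plus strand) for ZNF91, chr19:22193749-22193773 (plus) for ZNF208, chr19:21106030-21106054 (minus) for ZNF85 and chr19:22034876-22034900 (plus) for ZNF43. That of ZNF808 lies at chr19:53030916-53030940 (plus) and that of ZNF347 at chr19:53662287-53662311 (minus). Those of ZNF665, ZNF606 and ZNF274 lie on the minus strand at chr19:53696590-53696614, chr19:58514226-58514250 and chr19:58694336-58694360. Of these 9 genes ZNF85, ZNF347, ZNF606 and ZNF274 were bound in at least 1 library, and ZNF91, ZNF208, ZNF43, ZNF808 and ZNF665 in none.

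Cluster 4 held 36 motif sites in 32 promoters, 30 of them reading CCGGAAGC and none CCGGAAGT. All 30 went on to read CCGGAAGcc, against 4 of 38 sites in cluster 8 and 1 of 39 in cluster 10, and 10 of the 36 held the longer word acatcCCGGAAGcc, which stood in 11 of the 183 member sites in all. In cluster 4, 28 of the 36 sites lay on the strand opposite to the gene and 28 lay within 50 bp of the TSS. Cluster 8 also had mostly CCGGAAGC, 24 of 38 sites, but 36 of its sites lay on the strand of the gene. Cluster 10 had mostly CCGGAAGT, 26 of 39 sites, with 27 on the opposite strand. The form and the strand of the site thus differed between these clusters. Clusters 4 and 10 both had most sites on the opposite strand, with 8.11% and 41.9% of members bound. Bound shares were not computed by strand, so a link between strand and binding was not tested.

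Sorted by the form of the motif, with a promoter that held CCGGAAGT counted there first, 24 of the 53 members with CCGGAAGT were bound (45.3%, interval 32.66 to 58.55). Of the 66 members with CCGGAAGC, 13 were bound (19.7%, interval 11.89 to 30.84), and of those with no motif 18.3%, but at a -log10 q of at least 5 these shares were 15.2% and 5.77%. Another form of the motif was held by 26 members, of which 11 were bound (42.3%). The other coding genes of chromosome 19 did not show this difference, with 72.6% bound for CCGGAAGT and 73.0% for CCGGAAGC, and across all coding genes the shares were 74.4% and 59.1%. Among the members, the low share for CCGGAAGC lay in clusters 4 and 8, where 5 of 51 such members were bound (9.8%, interval 4.261 to 20.98), against 8 of 15 members elsewhere (53.3%, interval 30.12 to 75.19). In clusters 4 and 8 the 7 members with CCGGAAGT were bound in 2 cases (28.6%), and none of the 13 members without a motif was bound. Outside clusters 4 and 8 the share for CCGGAAGT was 47.8% (22 of 46, interval 34.12 to 61.86), whose interval overlapped that for CCGGAAGC. By library, the shares of members bound for CCGGAAGT and CCGGAAGC were 41.5% and 16.7% in OCI-Ly1 r2. In VAL r2 they were closer, at 26.4% and 15.2%, so the difference rested mostly on OCI-Ly1 r2. Outside clusters 4 and 8 the order was the reverse, with 43.5% and 53.3% in OCI-Ly1 r2 and 26.1% and 46.7% in VAL r2. The split by form and the pooling of clusters 4 and 8 were chosen after the values were seen and are descriptions.

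**Figure D5:**
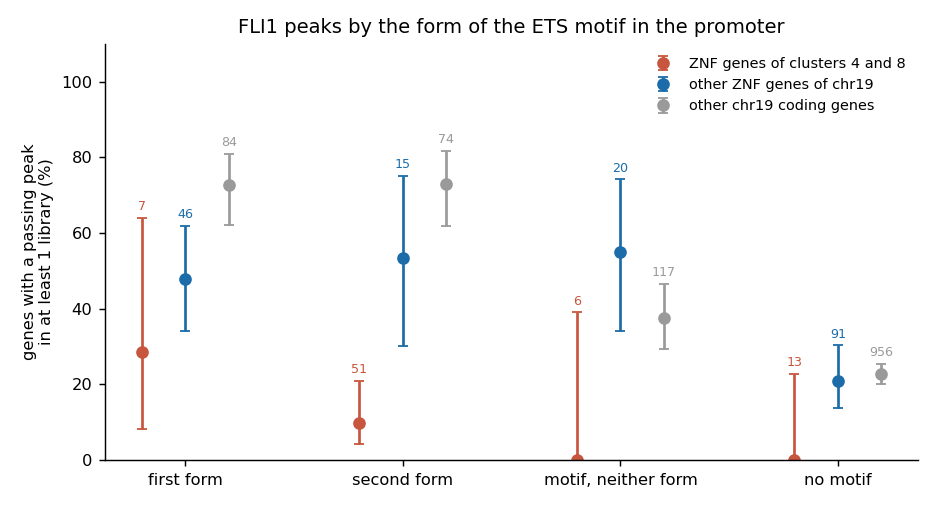
Points give the percentage of genes (y axis) with a passing peak in at least 1 library by the form of the motif within 250 bp of the canonical TSS (x axis: first form CCGGAAGT, second form CCGGAAGC, neither, or no motif), with 95% Wilson intervals and the number of genes above each. For the second form, members of clusters 4 and 8 stand at 9.8%, other members at 53.3% and other chromosome 19 coding genes at 73.0%. Clusters 4 and 8 were pooled after their low bound shares were seen.

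Other measures differed between the clusters as well, and their part in the bound shares was not tested. The ratio of observed to expected CpG around the canonical TSS had a median of 0.708 over the members, 0.736 in those bound and 0.693 in those not bound, and it was 0.538 in cluster 4, 0.733 in cluster 8 and 0.756 in cluster 10. Per the study's methods, reads with more than 1 position had been removed, which can thin coverage over recent duplicates. The submitters' processing notes name other tools, so this filter is not certain for the lists used here. The share of 50-base words around the canonical TSS that occur more than once on chromosome 19 was also measured. It averaged 1.93% in cluster 4, 3.13% in cluster 8 and 1.19% over all members. For the other coding genes of the chromosome it averaged 2.46%, but 22 of them were over 50% repeated and no member was. Promoters without any such word numbered 22 of 37 in cluster 4, 30 of 40 in cluster 8, 208 of all 249 members and 1111 of the 1231 other genes. Listed peaks of any strength near the starts numbered 0.505 per kb in cluster 4 and 0.55 in cluster 8 in OCI-Ly1 r2, against 0.534 over all members and 0.66 over the other genes. The median best peak of a member rested on 3 reads in clusters 4 and 8 in OCI-Ly1 r2, and on 5 in cluster 10, while the weakest passing member peak of that library had 6.

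Of 19 members with a role known from earlier work 5 were bound in at least 1 library (26.3%), close to the 26.9% of all members. They were ZNF175, ZNF274, ZNF473, ZNF507 and ZNF536. ZNF274, which guides SETDB1 to the 3′ ends of other zinc finger genes, had 12.7 in OCI-Ly1 r2, 0.285 in VAL r1 and 3.56 in VAL r2. ZNF507 had 4.82, 1.01 and 0.952 in that order. Among those not bound, ZNF91, which represses SVA elements, had 1.22, 0.382 and 0.952, and ZNF93, which represses LINE-1 elements, had 0.873, 0 and 1.33. ZNF417 and ZNF587, which act on endogenous retroviruses, reached at most 2.5 and 0.952. ZNF675, an inhibitor of TRAF6 signalling, reached at most 0.873, the imprinted gene ZNF331 also 0.873, and ZNF44 came closest to the threshold, with 2.89 in OCI-Ly1 r2 and 2.7 in VAL r2. The others of the 19 below it were ZNF43, ZNF71, ZNF224, ZNF382, ZNF541, ZNF649 and ZNF808.

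The genes of the silencing pathway that KRAB zinc finger proteins use, which lie on several chromosomes, were bound in at least 1 library in 8 of 17 cases (47.1%; 6 in OCI-Ly1 r2, 1 in VAL r1 and 7 in VAL r2), beside 27.4% of all coding genes. No interval was computed for this share, which rests on only 17 genes, so it is not read as an excess. MORC3, a nuclear ATPase of silenced chromatin, had 51.9, 12.5 and 42.4 in the order OCI-Ly1 r2, VAL r1, VAL r2, above every member in each library. DNMT1, the maintenance DNA methyltransferase, had 16.8, 0.417 and 12.0. TRIM28, the co-repressor that KRAB domains bind, passed in VAL r2 alone (3.4, against 1.12 and 0), and SETDB1 in none, with at most 1.61. Of 22 other C2H2 zinc finger genes of chromosome 19 with a different symbol, 6 were bound in at least 1 library (27.3%), near the 30.5% of the other genes of the chromosome. ZBTB45 passed in all 3 (27.8, 3.72 and 7.9), and ZSCAN22 and MZF1 in OCI-Ly1 r2 and VAL r2. ZFP82 passed in VAL r1 alone (4.76), a pattern that no member had.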

How the data were processed

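FLI1 ChIP-Seq peak lists of OCI-Ly1 replicate 2 and VAL replicates 1 and 2 were analysed. Per the study's methods, reads were mapped to GRCh37 with bowtie2 and filtered with SAMtools for unique, non-duplicate reads with a quality of at least 10, and peaks were called with HOMER at an FDR of 0.001. The submitters' processing notes instead name BWA and CASAVA 1.4, and the lists have 10 columns in the layout that MACS2 writes. The control and the caller settings are not given in the sources used here. The authors' caller gave each peak a fold enrichment (a ratio of pileup to local background), a -log10 p and, in column 9, a -log10 q, which were used as deposited.

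TSS came from all transcripts of protein-coding genes in GENCODE release 44 on GRCh37. A gene took its best peak centred within 3 kb. Reads at summits were inferred from the fold, taken as reads over background with 1 added to each, and a Poisson tail. This convention of such lists was assumed, and it could be solved for 100% of the best member peaks. Assignment and inference were tested on simulated data. Clusters joined members less than 500 kb apart, with at least 5 members. Motifs were searched on both strands within 50 bp of summits and 250 bp of canonical TSS, and the CpG ratio was taken within 500 bp. Computations used scipy 1.17.1 and pandas 2.3.3 on Python 3.11.15.

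No p-value was computed: bound counts were read against all other coding genes of the chromosome. Intervals are 95% Wilson or Newcombe intervals and cover counting error only. The genes named were the members bound in all 3 libraries, the 10 with the highest median value, those beside the threshold, the best of each cluster, 19 with a known role, and the 3 strongest bound in 1 line and under 1.5 in the other. ZNF28, ZNF160, ZNF558, ZNF561, ZNF296, ZNF85, ZNF682, ZNF208, ZNF665 and the genes with distant summits were named after their values were seen, as were the printed sites. The members and lists were chosen with earlier results of these data known. HKR1 and ZFP112 of the C2H2 list are now ZNF875 and ZNF112, which are members. Alternatives changed the threshold, fold, window, peak position, TSS set, libraries, motif and cluster gap. OCI-Ly1 replicate 1 and the input samples were left out.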

Additional observations from a re-analysis of the deposited data

How the results depend on the processing

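Of the 89 planned values under other settings, 70 stayed within 1.5 times the count, or within the interval of the share or difference. The counts moved with the threshold. At a -log10 q of at least 5, 36 members were bound in OCI-Ly1 r2, 1 in VAL r1, 27 in VAL r2, 1 in all 3 libraries and 43 in at least 1. At 2, the counts were 8 in VAL r1, 71 in VAL r2, 7 in all 3 libraries, 44 in both lines and 105 in at least 1. Leaving out 1 VAL replicate gave 2 to 29 members in all remaining libraries, 2 to 29 in both lines and 55 to 67 in at least 1: the low values are those without VAL r2 for both lines, and the 29 in all libraries is that without VAL r1. GGAA alone stood at 92.5%, 100% and 87.5% of member summits in OCI-Ly1 r2, VAL r1 and VAL r2, but also in 61.3%, 50% and 67.5% of the windows beside them. CCGGAAGT stood at 24.5% in OCI-Ly1 r2 and 25% in VAL r2. Within 100 bp the motif stood at 69.8% in OCI-Ly1 r2, 62.5% in VAL r2 and 100% in VAL r1. All VAL r1 shares here rest on 2 peaks. The difference from the other chromosome 19 genes stayed within its interval in each library, but in OCI-Ly1 r2, where that interval spans 0, its sign turned with 5 (0.485 points), a window of 1 kb (2.27), protein-coding transcripts (1.7) and the closest coding TSS (3.43). Gaps of 250 kb and 1 Mb gave 12 and 9 clusters, and 250 kb split cluster 4 into shares of 25% (2 of 8) and 3.45% (1 of 29) and cluster 9 into 71.4% and 33.3%. Chosen after seeing the data, other thresholds left clusters 4 and 8 low, at 8.11% and 15.0% for 2 and at 2.7% and 7.5% for 5. The order of the motif forms held too, with 69.8% and 37.7% bound for CCGGAAGT against 30.3% and 15.2% for CCGGAAGC. Members with no motif were bound in 34.6% at 2 and 5.77% at 5, so their closeness to CCGGAAGC was lost at 5. Other clusters moved more, to 53.8% at 2 and 3.85% at 5 in cluster 3, 43.5% and 8.7% in cluster 7, 100% and 0% in cluster 5, 35.7% at 5 in cluster 2 and 67.4% at 2 in cluster 10, so at 5 clusters 3, 5 and 7 were within 10 percentage points of 0, like 4 and 8. Without OCI-Ly1 r2, also chosen after seeing the data, clusters 3, 6 and 10 stood at 7.69%, 3.85% and 20.9%. No paired analysis was possible because no result comes from a test between samples and OCI-Ly1 has 1 usable library. The weakest passing member peak had 6 reads in OCI-Ly1 r2 and VAL r2 and 11 in VAL r1, while peaks with up to 8, 7 and 14 reads in OCI-Ly1 r2, VAL r2 and VAL r1 did not pass, so an unbound promoter had no binding detectable by these lists.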
